A study of Sus scrofa with 12 samples.

Results

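Genes of the ubiquitin and proteasome system were followed through lists of N6-methyladenosine (m6A) peaks from the long back muscle of newborn pigs. Members were chosen by gene symbol alone: names beginning with PSMA to PSMG, UBE, UBA and a digit, UBR, UBQLN, UCHL, USP, OTU, CUL and a digit, FBX, TRIM, RNF, HERC or SUMO, leaving out FBXO32, FBXO21 and TRIM55. The rule found 46 of the 2159 genes with any peak, and 278 of 13487 peaks. The study asked which methylated transcripts take part in the growth of muscle in these breeds. Longissimus dorsi was taken from 5-day-old Large White and Ningxiang pigs, with 3 replicates per breed and, for each, an immunoprecipitated and an input library, 12 samples in all. No treatment or genetic change is given for either breed. The labels do not state that replicates are different animals, so the p-values below reflect only the scatter of these libraries, which could be technical.

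Ubiquitin is a small protein that is attached to other proteins by a relay of an activating enzyme, a conjugating enzyme and a ligase, the ligase choosing the substrate. Chains of ubiquitin send a protein to the proteasome, a barrel-shaped core particle with proteolytic subunits, capped by a regulatory particle that unfolds the substrate or by activators that open the barrel. Deubiquitinases take ubiquitin off again. In skeletal muscle this system breaks down myofibrillar proteins, and several of its ligases and deubiquitinases are known from muscle wasting and growth. m6A is a methyl mark on adenosines of mRNA, commonly near stop codons and in long exons, and it bears on mRNA stability and translation.

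Each of the 6 lists, 1 per replicate, gives peaks with a fold, which is immunoprecipitated over input signal, and a p-value. Both come from the authors and describe a peak within its own list, so they are not used to compare methylation levels between breeds. Lists held 2034 to 2533 peaks. The lists do not give sequencing depth, and a gene with no listed peak may still carry m6A below the cutoff the authors used. Of 12 muscle genes checked, 10 had a peak in all 6 lists, CKM, DES, MYOG and RYR1 among them; ACTA1 had none, and TTN had no curated RefSeq transcript. Of the 2159 genes with a peak, 2129 matched a curated transcript by accession. The symbol rule found 72 curated genes on Sscrofa11.1, of which 46 (63.9%) had a peak, where 53.4% of all 3986 curated genes did.

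The 46 genes covered every step of the pathway except activation. They comprised 13 proteasome genes, 8 conjugating enzymes, 13 ligases of the HECT, RING, TRIM and U-box kinds, 5 F-box proteins, 6 deubiquitinases and SUMO2. Of the curated genes, 26 had no peak in any list. Among these were TRIM63 and TRIM54, muscle RING-finger ligases of the sarcomere, and UBE2B, a conjugating enzyme. No CUL or UBR gene had a curated transcript in that table, so nothing is read from their lack of peaks.

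More ubiquitin and proteasome genes had a peak in each Large White list than in any Ningxiang list. The Large White lists held 31, 31 and 34 of the genes (32.0 ± 1.73, SD, n = 3), and the Ningxiang lists held 25, 26 and 29 (26.7 ± 2.08, SD, n = 3). Peaks numbered 53, 52 and 53 in Large White (52.7 ± 0.577, SD, n = 3) against 35, 45 and 40 in Ningxiang (40 ± 5, SD, n = 3), a ratio of means of 1.32. On both measures the breeds did not overlap. The exact two-sided permutation test gave p = 0.1 for each (n = 3 per breed; adjusted p = 0.15 over 3 tests), which is the smallest p that 3 against 3 allows, so neither difference can pass 0.05.

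Large White lists were longer on average, at 2373, 2214 and 2533 peaks against 2034, 2111 and 2222, with overlap. As a share of the genes in a list, members made up 2.09%, 2.25% and 2.20% in Large White (2.18% ± 0.0812, SD, n = 3) and 1.91%, 1.93% and 2.01% in Ningxiang (1.95% ± 0.0539, SD, n = 3), without overlap. As a share of peaks the breeds did overlap. Members made up 2.23%, 2.35% and 2.09% of the peaks in Large White (2.22% ± 0.128, SD, n = 3) and 1.72%, 2.13% and 1.80% in Ningxiang (1.88% ± 0.218, SD, n = 3). Large White replicate 3 lay below Ningxiang replicate 2 (p = 0.2 and adjusted p = 0.2 by the exact permutation test). With the strongest 2034 peaks taken from every list, peak counts were 46, 47 and 40 against 35, 44 and 35, and these overlapped (exact permutation p = 0.2, n = 3 per breed). Gene counts from the same peaks were 31, 30 and 27 against 25, 26 and 25, which did not overlap (exact permutation p = 0.1, n = 3 per breed). When only the 50% of peaks with the lowest p were kept in a list, gene counts were 19, 16 and 17 against 14, 15 and 16. These overlapped, and the excess of Large White fell from 5.33 to 2.33 genes (exact permutation p = 0.2, n = 3 per breed). The part of list length in the difference was not tested in any other way.

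**Figure D1:**
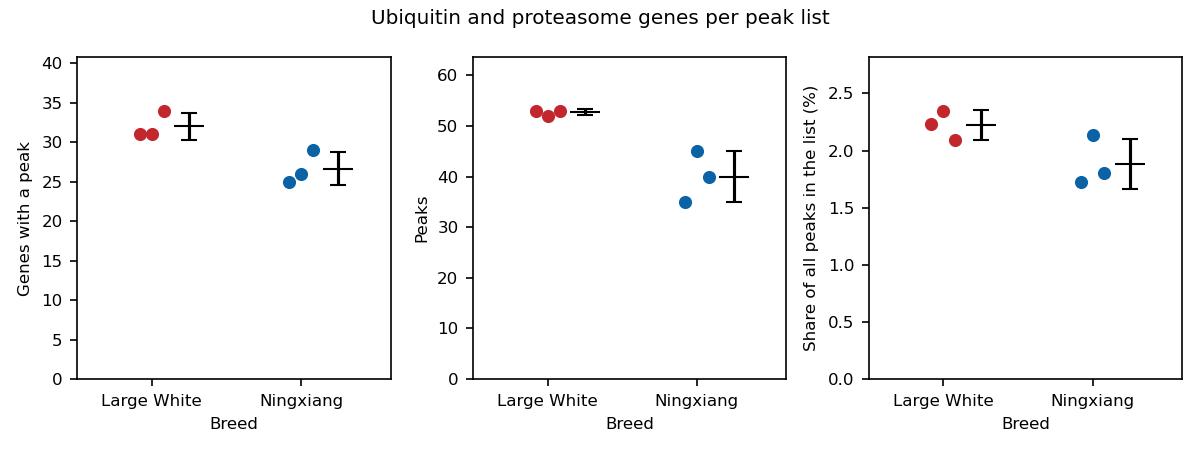
Ubiquitin and proteasome genes with a peak, their peaks, and their share of all peaks in the list, per list; points are replicates, and the black mark is the mean with SD (n = 3 per breed). Gene and peak counts do not overlap between breeds (31 to 34 against 25 to 29 genes), while the shares of peaks do.

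Most of the genes were marked in both breeds. Peaks in lists of both were found on 30 of 46 genes (65.2%), on 11 in Large White lists only and on 5 in Ningxiang lists only, where 73.2%, 15.8% and 11.0% of all genes with a peak fell in these classes. Every list held a peak on 18 members (39.1%), beside 35.7% of all 2159 genes, so the share is close to that background. Leaving out the 17 member peaks for which the files name a flanking gene too, 16 members had a peak in every list. A further 11 members (23.9%) had a peak in 1 list only, where 18.2% of all genes did. These 11 carried 1 peak each.

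**Figure D2:**
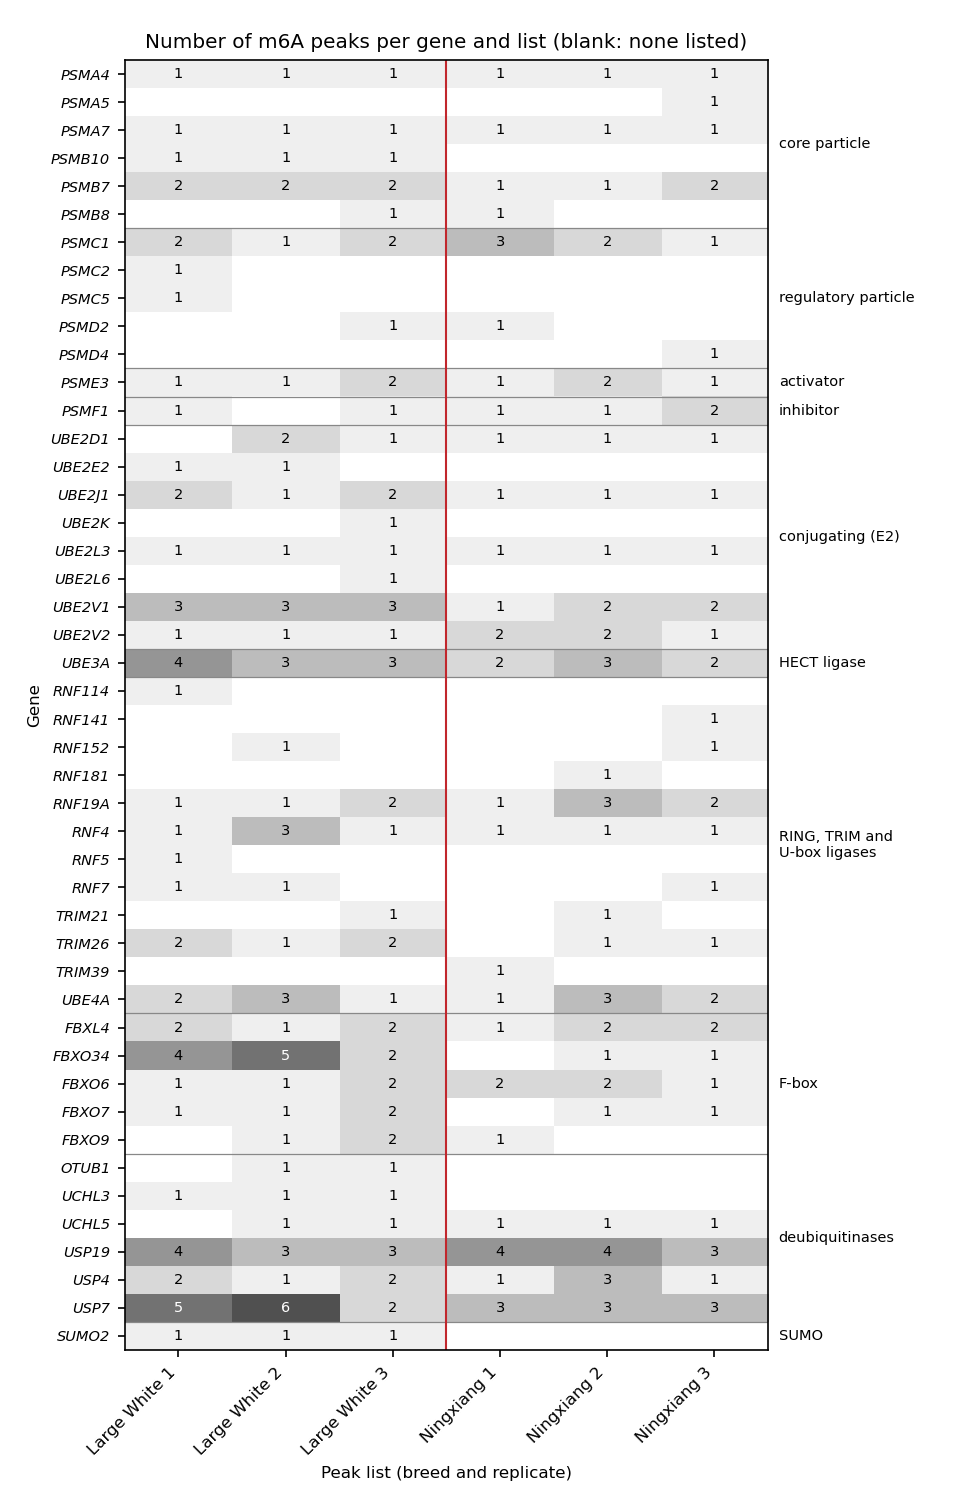
Number of m6A peaks on each of the 46 genes (rows, grouped by role) in each of the 6 lists (columns, 3 Large White left of the line and 3 Ningxiang right of it). USP7 and USP19 carry the most peaks, 22 and 21 over all lists, and SUMO2, UCHL3 and PSMB10 are blank in Ningxiang.

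Of the proteasome core particle, 6 of 12 curated genes had a peak. PSMA4 and PSMA7, alpha-ring subunits that gate the barrel, and PSMB7, the subunit with trypsin-like activity, were marked in all 6 lists. PSMA7 on chromosome 17 (susScr11, 61566373 to 61571516, minus strand) carried 1 peak in every list, reaching the last base of the gene in exon 7 of 7. Its folds were 2.96, 1.89 and 3.08 in Large White and 2.13, 2.4 and 2.3 in Ningxiang, with log10 p between -25.1 and -46.8. All 6 lists covered the same 148 bases, 61566373 to 61566520.

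PSMA4 likewise had 1 peak per list, in exon 9 of 9 on chromosome 7, and the 6 lists shared 148 bases from 47440767 to 47440914. Folds were 2.42, 2.53 and 2.99 in Large White and 1.94, 3.08 and 2.57 in Ningxiang. PSMB7 on chromosome 1 was among the strongest members by p: its best log10 p was -54.5, -63.7 and -52.1 in Large White and -44.9, -51.9 and -44.7 in Ningxiang. Its folds stayed low all the same, from 2.13 to 2.51. From 10.5% to 14.9% of the genes in a list had a best p as low as that of PSMB7 or lower.

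The remaining core genes were marked less often. PSMB10 and PSMB8 encode catalytic subunits of the immunoproteasome, the form induced by interferon. PSMB10 had a peak in each Large White list, with folds of 2.54, 2.1 and 2.85, and none in Ningxiang. These peaks were weak, with log10 p of -4.24, -3.6 and -4.16 where the medians of all peaks in those lists were -10, -9.395 and -11. PSMB8 had 1 peak in Large White replicate 3 and 1 in Ningxiang replicate 1, and PSMA5 1 in Ningxiang replicate 3. Of the core particle's 28 peaks, 17 were centred in the last 10% of the gene, measured over its genomic length with introns included. The curated core genes PSMA6, PSMB1, PSMB3, PSMB4, PSMB6 and PSMB9 had none.

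All 5 curated genes of the regulatory particle had a peak, but PSMC1 alone had one in every list. PSMC1 encodes an ATPase subunit of the ring that unfolds substrates. It carried 2, 1 and 2 peaks in Large White and 3, 2 and 1 in Ningxiang, spread from its 5′ to its 3′ end, and no base of it was covered in all 6 lists. Its best log10 p ranged from -6.09 in Ningxiang replicate 3 to -40.2 in Large White replicate 1. PSMC2 and PSMC5, further ATPases, each had a single peak in Large White replicate 1. PSMD4, a ubiquitin receptor of the particle, had one in Ningxiang replicate 3, and PSMD2, a scaffold subunit, one in Large White replicate 3 and one in Ningxiang replicate 1.

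The activator PSME3 and the inhibitor PSMF1 were both marked in at least 5 lists. PSME3, which opens the core particle in the nucleus without need of ubiquitin, had best folds of 5.42, 3.32 and 2.92 in Large White and 3.46, 4.71 and 2.55 in Ningxiang. A best fold is the highest of any peak on the gene in that list. For PSME3 it came from the 3′ part of the gene in Large White replicates 1 and 2 and Ningxiang replicate 1. In the other lists it came from a peak at the 5′ end, and no base was covered in every list. The sisters of PSME3, PSME1 and PSME2, have curated transcripts and no peak. PSMF1, which binds the core particle and blocks it, had peaks in 2 Large White and 3 Ningxiang lists, with best folds of 1.94 and 2.63 against 2.16, 2.28 and 2.77. Of its 6 peaks, 5 lay in the last 10% of the gene. Over all 13 proteasome genes there were 11, 7 and 12 peaks in Large White and 10, 8 and 10 in Ningxiang, so proteasome genes as a group overlapped between breeds.

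Among conjugating enzymes, UBE2V1, UBE2V2, UBE2L3 and UBE2J1 had a peak in all 6 lists. UBE2V1 and UBE2V2 encode catalytically inactive variants that pair with an active enzyme to build lysine-63 chains, which serve in signalling and DNA repair more than in degradation. By p, UBE2V1 had the strongest member peak in 4 lists, while PSMB7 led in Large White replicate 2 and UBE2L3 in Ningxiang replicate 2. Its best log10 p was -84.5, -62.1 and -68.7 in Large White and -57.6, -51.1 and -68.5 in Ningxiang. Best folds were 3.39, 2.89 and 4.88 (3.72 ± 1.04, SD, n = 3) and 2.42, 2.62 and 3.15 (2.73 ± 0.377, SD, n = 3).

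The main UBE2V1 peak crossed 3 splice junctions and reached all 4 exons of the annotated transcript, so it does not mark a narrow site. All 6 lists covered 448 bases of the gene in common, on chromosome 17: 155 bases from 51631872, the 126 bases from 51633326 to 51633451, the 149 bases from 51641528 to 51641676, and 18 bases from 51664421. Additional short peaks lay nearer the 3′ end of the gene. Counting these, UBE2V1 had 3 peaks in each Large White list and 1, 2 and 2 in Ningxiang.

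UBE2V2 had folds of 3.53, 3.32 and 2.95 in Large White and 2.35, 3.65 and 4.4 in Ningxiang, and shared 267 bases over the 6 lists. UBE2L3, which works with HECT and RING-between-RING ligases, had 1 peak per list, with a best log10 p from -35.7 to -64.8 and 270 shared bases. The files name a flanking gene, YDJC, for 5 of these 6 peaks, so their assignment is uncertain. Its folds were 3.02, 3.49 and 2.18 in Large White and 2.37, 2.92 and 2.64 in Ningxiang. UBE2J1, an enzyme of protein quality control at the endoplasmic reticulum, was marked in every list with weaker peaks (best log10 p -4.59 to -11.2), and no base was common to the 6. UBE2D1, a broadly acting enzyme, was missing from Large White replicate 1 only. UBE2E2 had peaks in Large White replicates 1 and 2, and UBE2K and UBE2L6 in Large White replicate 3. The conjugating family has closely similar copies, so assignment of reads to UBE2V1, UBE2V2 and UBE2D1 is uncertain.

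**Figure D3:**
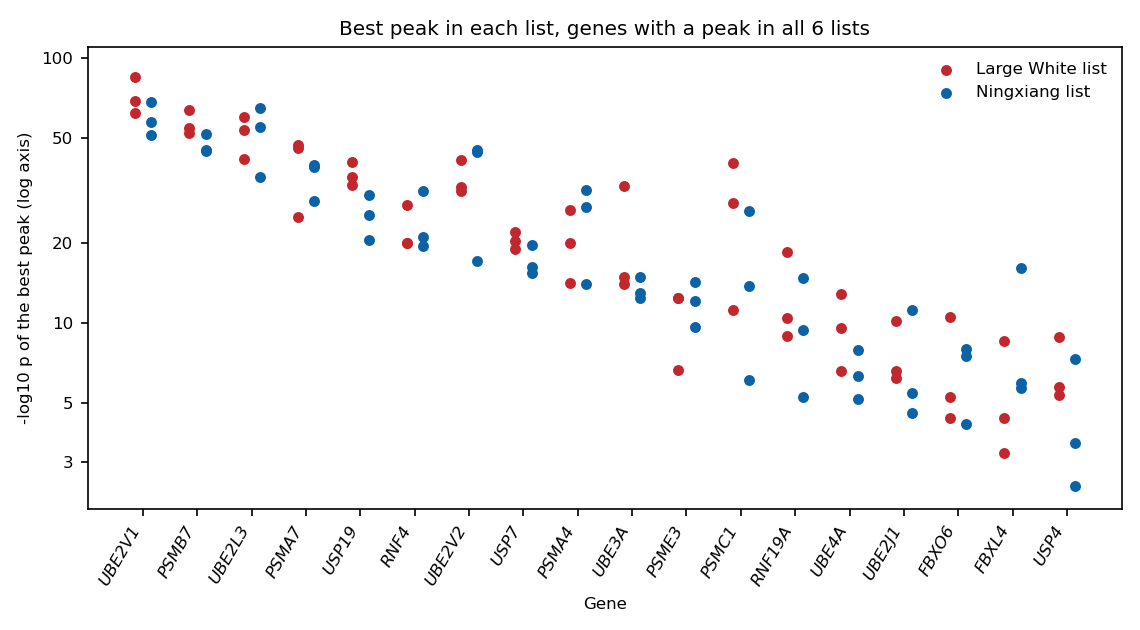
The -log10 p of the best peak in each list (vertical log axis) for the 18 genes with a peak in all 6 lists, ordered by their weakest list; each point is 1 list, by breed. UBE2V1 and PSMB7 lie at 44.7 or above in every list, and USP4 goes down to 2.44; the values belong to peaks within a list and are not methylation levels.

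Of the ligases, UBE3A, RNF4, RNF19A and UBE4A had a peak in all 6 lists. UBE3A, the HECT ligase lost in Angelman syndrome, carried 4, 3 and 3 peaks in Large White and 2, 3 and 2 in Ningxiang. Its most regular site was exon 6 of 14 on chromosome 1, where all lists covered 141959870 to 141960020. Peaks further along, from exon 9 onwards, appeared in all Large White lists and in Ningxiang replicate 2. Peaks listed in the 5′ untranslated region appeared in Ningxiang replicates 2 and 3 alone.

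RNF4, a ligase that recognises chains of SUMO, had its best log10 p between -19.5 and -31.6 over the 6 lists. Folds were 3.1, 3.92 and 2.8 in Large White and 2.53, 3.05 and 3.71 in Ningxiang. The peaks ran into the 3′ untranslated region of this plus-strand gene on chromosome 8, and 260 bases from 1378528 to 1378787 were common to all lists. RNF19A, a RING-between-RING ligase, had 8 of its 10 peaks in the last 10% of the gene and 91 bases covered by every list. UBE4A, a U-box ligase that lengthens ubiquitin chains, had 12 peaks scattered from exon 3 of 20 to the 3′ untranslated region, with no base common to all lists. ATP5L is named as a flanking gene for 5 of the 12, in the last exons, so the assignment of those is uncertain. One region of UBE4A at chromosome 9, 45674588 to 45674700, was covered in all 3 Large White lists and in no Ningxiang list.

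The other ligases were marked in 1 to 5 lists. TRIM26, TRIM39 and TRIM21, which act in antiviral and immune pathways, and RNF152, a ligase of the lysosome, gave high folds in 1 or 2 lists each, with weak p. TRIM26 reached 17.4 in Ningxiang replicate 2 and 9.35 in Large White replicate 1, both in exon 8 of 8. The best folds of 2.85 to 3.79 in its other lists with a peak belonged to a different site, in exons 1 and 2. TRIM21 had 15.7 in Ningxiang replicate 2 and 3.09 in Large White replicate 3, and RNF152 15.6 in Large White replicate 2 and 7.48 in Ningxiang replicate 3. In all, 10 member peaks on 7 genes had a fold above 5, a limit chosen after the values were seen, and 8 of these were weaker by p than the median peak of their list. Such peaks made up 3.80% ± 1.89 (SD, n = 3) of member peaks in Large White and 3.27% ± 1.04 in Ningxiang, where 9.25% ± 0.822 and 9.13% ± 2.38 of all peaks had such a fold.

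**Figure D4:**
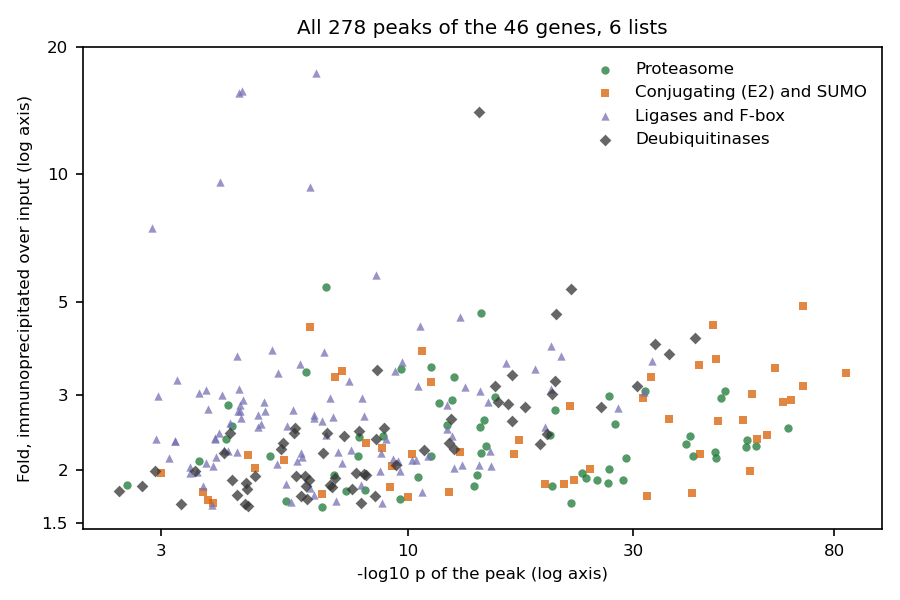
Fold over input against -log10 p (both log axes) for the 278 peaks of the 46 genes, pooled over the 6 lists, by role. Folds above 5 lie mostly at weak p and on ligases, and the peaks with the lowest p lie mostly on conjugating enzymes and proteasome genes at folds of 2 to 5; peaks of 1 gene share their transcript and are not independent.

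F-box proteins carry substrates to cullin ligases, and all 5 curated ones that the symbol rule kept had peaks. FBXO34 is annotated as a single exon and carried 4, 5 and 2 peaks in Large White and 0, 1 and 1 in Ningxiang, so the counts did not overlap. Its best folds were 2.75, 3.55 and 2.79, against 2.23 and 2.99 in Ningxiang replicates 2 and 3. All of its peaks were weak, the strongest at a log10 p of -8.08. FBXL4, which restrains mitophagy, and FBXO6, which recognises glycoproteins, had peaks in all 6 lists. FBXL4 peaks clustered in the listed exons 2 to 4 of 8, and FBXO6 peaks in exons 3 and 5 and the 3′ untranslated region. FBXO7, linked to parkinsonism, was missing from Ningxiang replicate 1 only, and FBXO9 was in 2 Large White lists and 1 Ningxiang list.

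Deubiquitinases carried 63 peaks on 6 genes. USP19, an enzyme known from muscle wasting and myogenesis, carried 4, 3 and 3 peaks in Large White and 4, 4 and 3 in Ningxiang. It had the highest minimum of best fold among members present in all lists: 3.76, 3.97 and 4.1 in Large White (3.94 ± 0.172, SD, n = 3) and 4.68, 3.16 and 2.81 in Ningxiang (3.55 ± 0.994, SD, n = 3). The gene lies on the minus strand of chromosome 13, from 31726731 to 31736433. Its strongest peak took in exon 21 of 26 and the exon before it. All lists shared 32 bases from 31729919 to 31729950 in exon 21, and 148 bases from 31730053 to 31730200.

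The other USP19 sites recurred as well. All 6 lists covered 90 bases of exon 6 from 31734760 to 31734849, and 120 bases of exon 1 from 31736284 to 31736403. A peak around exons 10 and 11 was listed in Large White replicate 1 and Ningxiang replicates 1 and 2. In total 390 bases of USP19 were common to the 6 lists, second to UBE2V1 among the members.

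USP7, which stabilises p53 and its ligase MDM2, had the most peaks of any member and was marked less regularly. It carried 5, 6 and 2 peaks in Large White and 3 in each Ningxiang list, on 30 separate exonic regions, none covered in all 6 lists. Its 5′ peak, which runs from the first exon across long introns, was in all lists except Ningxiang replicate 2. The best fold was 14, 5.36 and 3.25 in Large White and 2.86, 2.89 and 2.64 in Ningxiang, and the mean of 7.54 ± 5.70 (SD, n = 3) in Large White rests on replicate 1. The fold of 14 and the other best folds belonged to the 5′ peak, except that of Ningxiang replicate 2. The 2.89 there came from a peak starting at exon 9 of 31, so the values are not all of the same site.

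**Figure D5:**
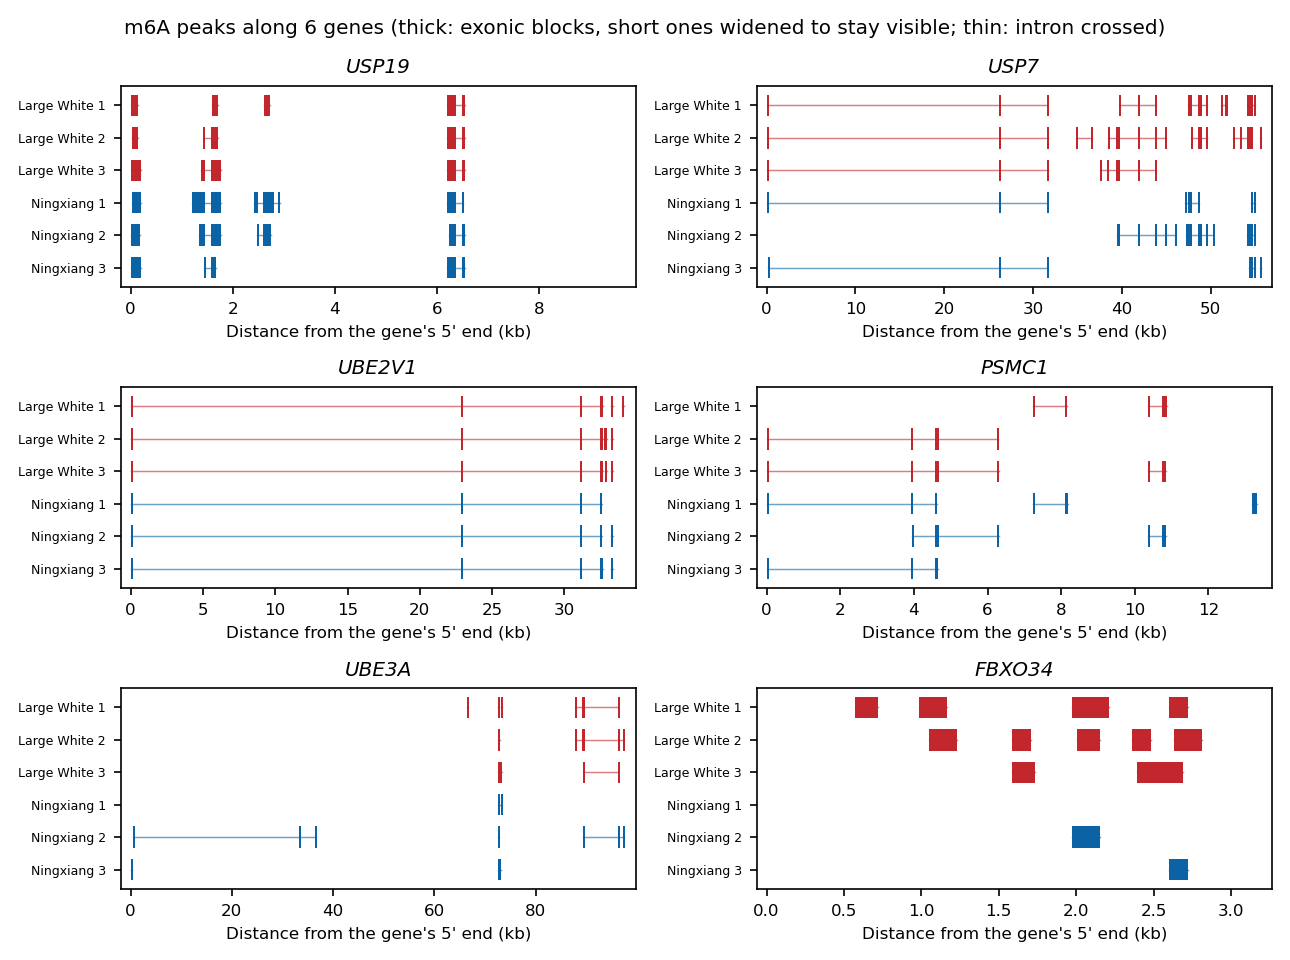
Peaks along USP19, UBE2V1, UBE3A, USP7, PSMC1 and FBXO34 by distance from the 5′ end of the gene (kb), 1 row per list; thick bars are exonic blocks and thin lines the introns a peak crosses. Short blocks are widened to stay visible. USP19 and UBE2V1 share 4 covered regions across all 6 lists, while USP7 and PSMC1 have no base covered in every list and FBXO34 has no peak in Ningxiang replicate 1.

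The other deubiquitinases had fewer peaks. USP4, a near relative of USP15 and USP11, was in all lists with weak peaks, down to a log10 p of -2.44. UCHL5, which acts on the proteasome, was missing from Large White replicate 1 only, with folds of 1.71 to 2.37. OTUB1, which also inhibits conjugating enzymes, had peaks in Large White replicates 2 and 3, at 1.8 and 1.95; the files name MACROD1 as a flanking gene, so its assignment is uncertain. UCHL3, a hydrolase that also processes the ubiquitin-like NEDD8, had a peak in every Large White list and in no Ningxiang list. Its folds were 3.45, 2.05 and 1.66, with log10 p of -8.58, -9.41 and -4.51, which were weaker than the list median in replicates 1 and 3 and level with it in replicate 2.

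A peak in each list of 1 breed and in no list of the other was found on 3 genes for Large White, PSMB10, SUMO2 and UCHL3, and on 0 for Ningxiang. Over all 2159 genes with a peak, 1.34% were Large White only and 0.741% Ningxiang only by this rule. Fisher's exact test, two-sided, gives such a gene p = 0.1 (n = 3 per breed). Adjusted over all genes every p was 1, and 0 genes had an unadjusted p under 0.05, so neither PSMB10 nor SUMO2 nor UCHL3 passed. No member had peaks in each list of 1 breed and in a single list of the other. Counting peaks in place of presence, 5 members had more peaks in each Large White list than in any Ningxiang list, these 3 with UBE2V1 and FBXO34, beside 2.5% of all genes. None had more in each Ningxiang list, where 1.34% of all genes did. This count was added after the values were seen.

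SUMO2, a ubiquitin-like modifier that is attached to many nuclear proteins, was the strongest of the 3 by p. By fold it was the weakest in Large White replicates 1 and 2, while UCHL3 was lower in replicate 3, at 1.66. The log10 p of SUMO2 was -52.9, -32.1 and -40 in Large White replicates 1, 2 and 3. From 13% to 21.9% of the genes in those lists had a best p as low or lower. Folds were 1.99, 1.73 and 1.76 (1.83 ± 0.142, SD, n = 3). The 3 peaks met at exon 2 and the next exon of 4 on chromosome 12, at 6118410 to 6118531 and 6124944 to 6125015, regions with no peak in Ningxiang. SUMO2 has near-identical copies, so this assignment is uncertain. SUMO2 alone of the 3 kept its pattern when the strongest 2034 peaks, or the stronger 50% by p, were taken from each list. PSMB10 and UCHL3 did not. Such cuts remove the weaker peaks and cannot add a Ningxiang peak. They therefore favour the member with the lowest p, and the outcome is no separate support for SUMO2.

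Sites were less regular than genes. Merging the exonic parts of member peaks gave 220 regions, of which 22, on 10 genes, were covered by every list and 73 by a single list. That is 10% and 33.2% of member regions, where 15.1% and 35.9% of the 9348 regions of all genes were so covered. The 10 genes were PSMA4, PSMA7, PSMB7, RNF19A, RNF4, UBE2L3, UBE2V1, UBE2V2, UBE3A and USP19. The other 8 of the 18 genes present in every list shared the gene but no region. Regions in all 3 Large White lists and no Ningxiang list numbered 6, on SUMO2, UCHL3, PSMB10 and UBE4A, and the reverse numbered 0. Among the 9348 regions, 1.78% met this rule for Large White and 0.685% for Ningxiang. A peak that crosses splice junctions gives several regions, so these are not separate sites. The 17 member peaks with a flanking gene lay on OTUB1, PSMB8, PSMC5, RNF5, TRIM39, UBE2L3 and UBE4A.

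Member peaks had lower median folds than all peaks in each list. Medians of fold per list ranged from 2.17 to 2.47 for members and from 2.42 to 2.605 for all peaks. Median log10 p ranged from -7.725 to -8.98 for members and from -9.395 to -11 for all peaks. Of member peaks, 32.3% ± 2.22 (SD, n = 3) were centred in the last 10% of the gene in Large White and 34.1% ± 1.54 in Ningxiang, beside 35.4% ± 0.646 and 35.7% ± 0.926 of all peaks. In the first 10% of the gene lay 10.1% ± 1.04 and 6.60% ± 5.17 of member peaks, beside 5.48% ± 0.294 and 6.35% ± 1.58 of all peaks. The median exonic length was 190 ± 17.3 bases for members in Large White and 194.8 ± 14.5 in Ningxiang, beside 210.3 ± 0.577 and 209.7 ± 0.577 for all peaks. Splice junctions were crossed by 62.7% ± 2.53 and 66.7% ± 3.60 of member peaks, beside 57.7% ± 1.41 and 55.1% ± 1.41. These are descriptions of the same genes seen 6 times, and no test was made of members against the rest.

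Other genes of the pathway, from a list of 79 outside the members, gave 16 with a peak among 20 with a curated transcript. Of all curated genes, 53.4% had one. The list includes FBXO32, FBXO21 and TRIM55, which match the symbol rule but were left out by name. It was drawn up with earlier results of these data known, so 16 of 20 is no measure of enrichment over the 53.4%. Every list held a peak on 4 of these 16, where 35.7% of all genes with a peak had one in every list. UBB had a peak in 1 list only, as did 18.2% of all genes with a peak. The rule above for a single breed was met by 0 of the 16. The 4 were MDM2, the ligase of p53, XIAP, a ligase that inhibits caspases, TRAF6, a builder of lysine-63 chains, and DCAF8, a substrate receptor of cullin ligases. TRAF6 had folds of 3.82, 3.69 and 3.35 in Large White and 6.26, 2.85 and 2.72 in Ningxiang. VCP, the ATPase that extracts ubiquitylated proteins, had a peak in 2 lists of each breed at folds of 1.68 to 1.88. FBXO32, the muscle atrophy F-box protein, FBXO21 and TRIM55 each had peaks in 3 Large White and 2 Ningxiang lists.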

How the data were processed

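Per the labels' protocols, mRNA was selected on oligo beads, fragmented and enriched with an m6A antibody, and libraries were built from enriched and input RNA. FastQC 0.11.9, HOMER, ChIPseeker 1.30.2 and the build susScr11 come from the submitters' processing notes. The aligner is not given in the sources used here, nor is the caller of peaks. Per the file headers, each deposited peak has a p-value, its log10 and log10 adjusted forms (read as scores) and a fold, a linear ratio of immunoprecipitated over input. Each list was tied to its sample by the description that names it. Depth is not recorded, so no interval could be computed.

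Starts were printed after adding 1, because 441 peaks begin 1 base before their gene. Exon numbers rose along the chromosome for 437 of 439 plus-strand and 539 of 539 minus-strand transcripts, so minus-strand numbers were turned round. The listed exon is the first the peak touches along the chromosome. Counts were compared with exact two-sided permutation tests over 20 splits, with Benjamini-Hochberg adjustment over 3 tests; single genes with Fisher's exact test, adjusted over 2159 genes. Exonic blocks overlapping by at least 1 base were merged into regions. Named genes were the breed-only members, the 10 highest by minimum best fold and the 10 lowest by weakest best p among those in all lists (7 genes are in both), every proteasome, SUMO, UBA and ubiquilin gene with a peak, and genes known from muscle. Members and lists were chosen with earlier results of these data known. Other members were named after their values were seen. Alternatives were equal list length, the stronger 50% by p, each replicate left out, the 3 excluded genes added, a replicate block and, chosen after seeing the data, peaks with no second gene named. The breed-only count was run on simulated presence with planted breed-only genes, which it finds by definition, so this checks only the computation. The permutation and sign-flip tests were checked on small made-up values, and Fisher's test was not checked. False calls were not measured. Python 3.11.15, pandas 2.3.3, NumPy 2.4.6, SciPy 1.17.1 and Matplotlib 3.10.9 were used.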

Additional observations from a re-analysis of the deposited data

How the results depend on the processing

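Of 73 alternative values, 70 kept their direction, or lay within 1.5 times the reported count, and 0 reversed. Several of these values could not move freely, so the tally overstates stability. The replicate block changes only the p. Leaving out a list cannot lower the count of members in all lists or in 1 breed only. Large White only members numbered 1 in place of 3 both at equal list length (2034 peaks) and with the stronger 50% by p. Members with a peak in all lists numbered 10 in place of 18 with the stronger 50%, and 16 at equal list length. The excess of Large White in member peaks was 12.7 as reported, 6.33 at equal list length, 4 with the stronger 50% and 16.3 with FBXO32, FBXO21 and TRIM55 added. Without each replicate in turn, the excess was 10.17 to 15.17 peaks and 4.33 to 6.5 genes, Large White only members numbered 3 to 4, and regions with a peak in all remaining lists 24 to 27. The excess in member genes was 5.33 as reported, 4 at equal list length and 2.33 with the stronger 50%. With 50% of a region required in each list, 16 of the 22 regions remained. With the replicate number as a block, the exact sign-flip test gave p = 0.25 for genes, peaks and share (n = 3 pairs), the smallest that 3 pairs allow. Same-numbered lists deviated together with correlations of 0.0476, 0.0346 and -0.016 across genes. Differently numbered lists gave -0.0867 to 0.0497, and with 3 pairs these values cannot decide whether equal numbers share anything. The samples were not paired because the labels do not say that equal replicate numbers share anything. Depth is unknown, and it limits whether a missing peak can be read as missing m6A.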
